A study of Mus musculus with 6 samples.

Results

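Immediate early genes are genes whose transcription starts within minutes of a signal and needs no new protein synthesis. The 10 described here, Fos, Fosb, Jun, Junb, Jund, Egr1, Egr2, Nr4a1, Dusp1 and Ier2, were chosen by name. They and the other gene lists below were chosen with earlier results of these data known. All 10 are among the 46983 genes in the count files and among the 12748 genes that were tested. They were read in naive CD4 T cells, lymph node T cells that have not met antigen, sorted from male mice as live cells positive for TCR-beta, CD4 and CD62L and negative for CD44. All mice were Cmtr1 fl/fl. The 2 control libraries came from mice labelled CD4cre negative, and the 4 libraries labelled Cmtr1 cKO came from mice that also carried CD4cre, a transgene whose recombinase acts from the thymus onward in T cells. The controls therefore carried the floxed alleles but not the recombinase, and no group carried CD4cre with intact Cmtr1 alleles. The 6 libraries are called control 1 and 2 and Cmtr1 cKO 1 to 4 as their labels name them. CMTR1 is the enzyme that methylates the ribose of the first nucleotide next to the mRNA cap. The labels give no age, strain background or mouse identity, so the p-values reflect only how far these samples spread, and that spread may be technical.

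In T cells these genes respond to the T cell receptor. Its signal reaches them through the ERK kinases, which activate the SRF and TCF factors at CArG boxes, through CREB and its relatives at cyclic AMP response elements, and through calcium and MEF2, which act on Nr4a1. Naive T cells receive weak, continuous receptor signals from self peptides, often called tonic signals, and Nr4a1, Egr1 and Egr2 are commonly read as their record. The same genes, Fos and Jun above all, also respond to tissue dissociation, temperature shifts and sorting, often together with heat shock genes.

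The upstream sequences of 3 members are shown. Nr4a1 and Fos were the members that passed the test. Egr2 carries the only CArG box found in the 250 bases searched before each start site, and bases farther upstream were not searched. RefSeq windows on GRCm38.p6 were found for 8 of the 10 members, and Egr1 and Ier2 were not matched. The 250 bases before the start site are printed on the plus strand of GRCm38, the strand of all 3 genes. The Fos window is chr12:85473640-85473889, that of Nr4a1 is chr15:101266596-101266845, and that of Egr2 is chr10:67537619-67537868, before 1 of the 5 start sites listed for it. Capitals mark the core of a cyclic AMP response element (TGACG, or CGTCA on the other strand), the CArG box and TATAAA.
Fos: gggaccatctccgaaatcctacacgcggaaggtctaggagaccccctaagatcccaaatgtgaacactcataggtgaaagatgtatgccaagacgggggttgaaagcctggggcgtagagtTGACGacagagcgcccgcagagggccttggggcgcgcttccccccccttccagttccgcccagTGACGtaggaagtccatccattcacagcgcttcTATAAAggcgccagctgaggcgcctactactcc
Nr4a1: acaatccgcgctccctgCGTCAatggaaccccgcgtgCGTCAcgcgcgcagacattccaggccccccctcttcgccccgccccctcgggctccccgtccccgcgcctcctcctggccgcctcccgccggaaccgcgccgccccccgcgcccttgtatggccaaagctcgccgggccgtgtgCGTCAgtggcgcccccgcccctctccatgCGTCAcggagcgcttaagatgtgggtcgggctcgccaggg
Egr2: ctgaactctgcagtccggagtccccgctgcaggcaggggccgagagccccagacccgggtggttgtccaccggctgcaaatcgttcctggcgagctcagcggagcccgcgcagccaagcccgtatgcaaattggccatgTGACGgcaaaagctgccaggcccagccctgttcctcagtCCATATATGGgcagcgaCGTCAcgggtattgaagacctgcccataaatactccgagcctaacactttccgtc
Nr4a1 held 4 cores, Fos 2 and Egr2 2, and both strands were searched. Among 32817 RefSeq windows of this length 17.7% held at least 1 core, 3.90% at least 2 and 0.137% at least 4. Dusp1 held 3 cores, 1 of them within the full palindrome TGACGTCA, which 1.55% of windows held. Fosb and Junb held 1 each, and the windows of Jun and Jund held none. The CArG box was in 1.47% of all windows, and the Egr2 box spans positions -72 to -63 from the start. That rate is per window, and Egr2 had 5 windows. Its window chr10:67535249-67535498 held 0 cores and 0 CArG boxes. TATAAA, found in 12.4% of windows, spans positions -33 to -28 in Fos. Fosb and Nr4a1 each held 1 match to the EGR site GCGNGGGCG (4.70% of windows), and no member's window held the AP-1 site TGANTCA (6.75% of windows). These matches describe the letters only.

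The targeted gene does not check the labels. Cmtr1 had 11.2 and 11.4 CPM (counts relative to the library total on genes, scaled by TMM factors) in the controls and 16.0, 19.8, 14.6 and 7.57 CPM in the libraries labelled Cmtr1 cKO. Only Cmtr1 cKO 4 was below the controls, and the other 3 were above both, at a log2 fold change of 0.36 with an SE of 0.31 (edgeR adjusted p = 0.461). These counts are sums over all annotated exons, and the sources used here do not name the floxed exons, so each direction below is one between libraries as labelled.

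The libraries held 9513874 to 11949838 counted reads on the gene's own strand. Reads mapped to 1 place but to no annotated exon on the gene's own strand made up 37.2% and 34.0% in controls 1 and 2. In Cmtr1 cKO 1 to 4 they made up 52.3%, 51.6%, 46.7% and 38.0%. This is called the share outside exons, but reads in exons on the other strand can enter it. The part of such reads, in Cmtr1 cKO 3 above all, was not tested. The mean shares of the groups differed by 11.6 percentage points. An exact permutation test, two-sided over 15 splits with 0.0667 as its smallest p, returned p = 0.133. Cmtr1 cKO 4 stood nearest to the controls by this share, and member counts below are also given without it. Summed markers of naive CD4 T cells ran from 6447 to 6645 CPM in the controls and from 6006 to 7029 in Cmtr1 cKO. Markers of CD8 T and NK cells summed to 70.5 to 88.7 CPM in the controls and 32.8 to 37.6 in Cmtr1 cKO, with 3 of 6 tested genes lower. B cell markers summed to 423 to 448 and 315 to 369 CPM, with 3 of 9 lower, and no gene of either list was at 0 in every library, though Klrb1c had at most 3 reads in each. Thymocyte markers summed to 349 to 355 CPM in the controls and 411 to 443 in Cmtr1 cKO, with 1 of 3 tested genes higher (Themis). Rag2 and Ptcra were at 0 and Rag1 had at most 3 reads in each library. This sum therefore rests almost wholly on the 3 tested genes. Markers of regulatory T cells summed to 145 and 212 CPM in controls 1 and 2 and to 152 to 215 in Cmtr1 cKO. Myeloid markers summed to 48.6 and 28.7 CPM in controls 1 and 2 and to 26.5 to 30.9 in Cmtr1 cKO. Cmtr1 cKO 3 differed most from the rest of its group (chi-square per degree of freedom 46.2 to 54.0, against 1.93 between Cmtr1 cKO 1 and 2). Its reads on the gene's own strand were 5.57 times those on the other strand, against 18.7 to 22.7 times in the other 5 libraries. Fos, Fosb, Junb and Dusp1 were highest in Cmtr1 cKO 3. The unstranded counts of these members in it were 100% to 100.7% of those on their own strand. The part of these cell types and library differences in the results below was not tested, beyond the share outside exons used as a covariate and the libraries left out in turn. In bulk RNA fewer cells of a type and less RNA per cell cannot be told apart.

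Of the 10 immediate early genes 2 were higher in the libraries labelled Cmtr1 cKO, Nr4a1 and Fos, and 0 were lower, by the quasi-likelihood test of edgeR, adjusted over all genes tested by Benjamini and Hochberg (adjusted p under 0.05). At an unadjusted p under 0.05 the counts were 2 and 1, the latter Ier2, where 1930 and 2003 of all 12748 genes had such a p. DESeq2 also called 2 higher and 0 lower (5.41% and 5.91% of all genes). In the edgeR test 4.66% of all genes were called higher, 6.77% lower and 11.4% in either direction. The median log2 fold change of the 10 was 0.25, against -0.00047 for all genes tested. The 2 groups did not overlap for 3 members, with every Cmtr1 cKO library above both controls for Nr4a1 and Fos and below both for Ier2. This was so for 39.0% of all genes tested (18.2% higher, 20.8% lower), so 3 of 10 does not stand out from the background.

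**Figure D1:**
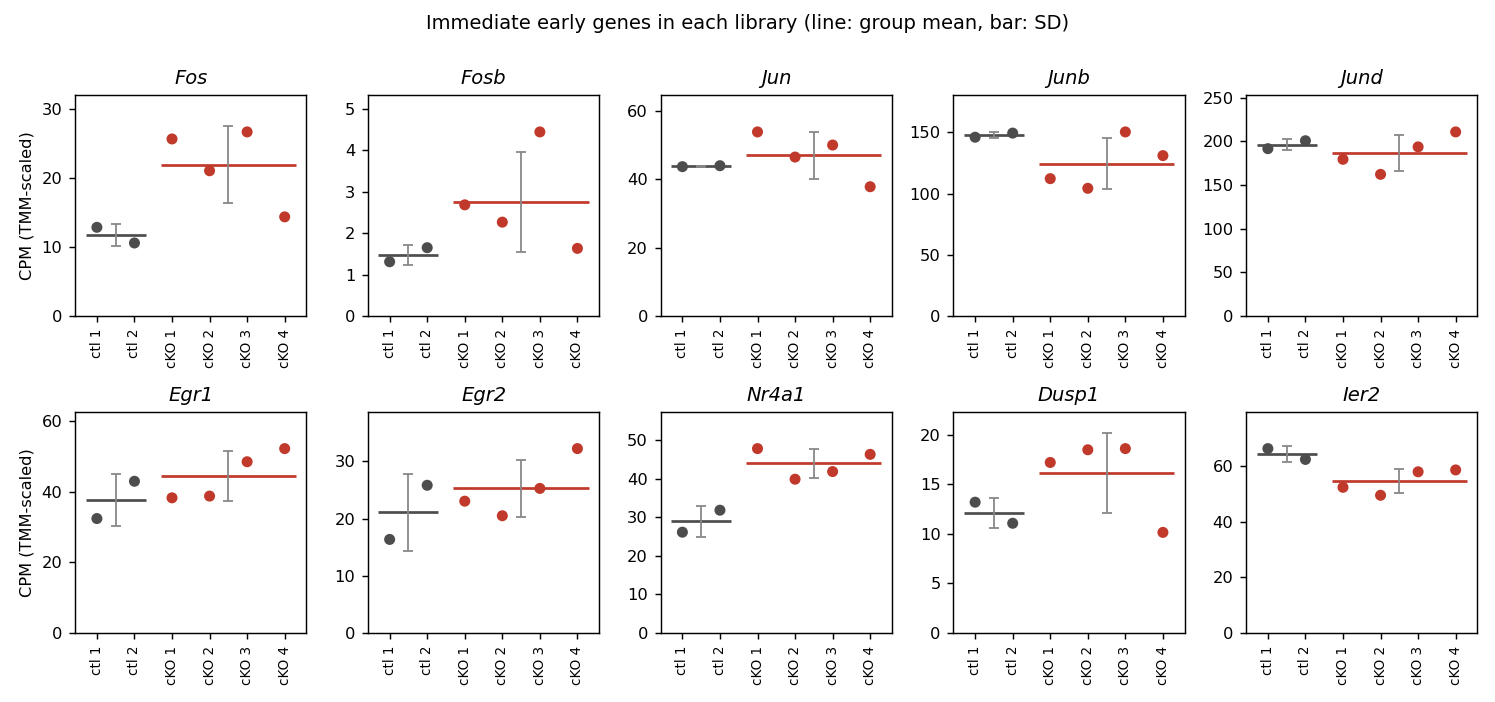
CPM of each immediate early gene (y axis, from 0, a scale of its own for each gene) in the 2 control (grey) and 4 Cmtr1 cKO (red) libraries, with group means as lines and SD as bars. Nr4a1 sits at 39.9 to 47.9 CPM in Cmtr1 cKO against 26.1 and 31.9 in the controls, while Fos and Dusp1 in Cmtr1 cKO 4 lie near the controls.

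Nr4a1 encodes the orphan nuclear receptor NUR77, the gene behind the reporter most used for T cell receptor signal strength. It lies on chromosome 15 from 101254269 to 101274795 (plus strand, GRCm38), and the RefSeq start used above falls inside that span. Controls 1 and 2 had 26.1 and 31.9 CPM, from 299 and 328 reads. Cmtr1 cKO 1 to 4 had 47.9, 39.9, 41.9 and 46.4 CPM, from 396 to 539 reads. All 4 were above both controls, and the means of 29.0 ± 4.0 (SD, n = 2) and 44.0 ± 3.7 CPM (SD, n = 4) differed 1.52-fold. The log2 fold change was 0.60 ± 0.11 (SE), with edgeR adjusted p = 0.00803. Nr4a1 was called under 15 of 16 alternative analyses. Without control 1, its lowest library, the fold change was 0.48 and the call ended (edgeR adjusted p = 0.114), where the lone control is assumed to vary like the other group.

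Fos and Fosb encode the FOS-type partners of the AP-1 dimer, which bind DNA only when paired with a JUN protein. Fos (chromosome 12, 85473890 to 85477273, plus strand) stood at 12.9 and 10.6 CPM in the controls, against 25.6, 21.0, 26.7 and 14.4 CPM in Cmtr1 cKO 1 to 4. All 4 were above both controls, Cmtr1 cKO 4 by the smallest margin. The means were 11.7 ± 1.6 (SD, n = 2) and 21.9 ± 5.6 CPM (SD, n = 4), 1.87-fold apart, with a log2 fold change of 0.89 ± 0.23 (SE) and edgeR adjusted p = 0.0337. Without Cmtr1 cKO 4 the fold change was 1.05 (edgeR adjusted p = 4.84e-05). The call ended without any other single library, at log2 fold changes of 1.05 and 0.78 without controls 1 and 2 and of 0.81, 0.91 and 0.80 without Cmtr1 cKO 1, 2 and 3 (edgeR adjusted p = 0.127, 0.235, 0.0774, 0.0674 and 0.0739).

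Fosb (chromosome 7, 19302696 to 19310051, minus strand) was the least abundant member. It stood at 1.31 and 1.65 CPM in the controls, from 15 and 17 reads, against 2.68, 2.27, 4.44 and 1.63 CPM in Cmtr1 cKO 1 to 4, from 19 to 42 reads. Its order over the libraries resembled that of Fos, with Cmtr1 cKO 3 highest and Cmtr1 cKO 4 among the controls. The log2 fold change of 0.88 ± 0.41 (SE) was as large as that of Fos but did not pass (edgeR adjusted p = 0.17). Without Cmtr1 cKO 4 it was 1.06 and passed (edgeR adjusted p = 0.0335).

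The 3 JUN-type genes, whose proteins can pair with each other or with FOS proteins, did not pass the test. Jun (chromosome 4, 95049034 to 95052222, minus strand) stood at 43.7 and 44.0 CPM in the controls, against 53.9, 46.5, 50.04 and 37.8 CPM in Cmtr1 cKO 1 to 4. Cmtr1 cKO 4 was the lowest of all libraries and the other 3 were above both controls, and the log2 fold change was 0.10 ± 0.12 (SE). Junb (chromosome 8, 84974484 to 84978718, minus strand), which restrains JUN activity in many settings, had 146 and 149 CPM against 112, 104, 150 and 131 CPM. The Junb fold change was -0.25 ± 0.12 (SE, edgeR adjusted p = 0.194), with Cmtr1 cKO 3 at the level of the controls. Jund (chromosome 8, 70698949 to 70700616, plus strand), the JUN gene with the steadiest expression in resting cells, had 192 and 201 CPM against 179, 162, 194 and 211 CPM. Its groups overlapped, at a log2 fold change of -0.07 ± 0.10 (SE). An antisense gene, Gm11175, covers 52.6% of the exon bases of Jund, and the counts used here come from the strand of Jund alone.

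Among the 5 AP-1 members the JUN-type genes made up most of the RNA per kilobase of exon, other FOS-type genes such as Fosl2 not counted. Fos and Fosb together made up 2.87% and 2.34% of the summed CPM per kilobase of the 5 AP-1 members in the controls. In Cmtr1 cKO 1 to 4 they made up 6.14%, 5.59%, 5.76% and 3.16%. Every Cmtr1 cKO library was above both controls in this share, and Cmtr1 cKO 4 was close to control 1. The summed JUN-type level was 192 and 199 CPM per kilobase in the controls and 157 to 197 in Cmtr1 cKO.

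Egr1 and Egr2 are zinc finger factors induced through ERK, and Egr2 with Egr3 restrains T cell activation and maintains tolerance. Egr1 (chromosome 18, 34859823 to 34864984, plus strand) stood at 32.4 and 43.0 CPM in the controls, against 38.3, 38.8, 48.6 and 52.3 CPM in Cmtr1 cKO 1 to 4. Cmtr1 cKO 1 and 2 lay between the 2 controls, and Cmtr1 cKO 3 and 4 lay above them. Egr2 (chromosome 10, 67535475 to 67542188, plus strand) had 16.4 and 25.8 CPM against 23.0, 20.5, 25.3 and 32.3 CPM. Only Cmtr1 cKO 4 exceeded both controls, which differed 1.58-fold between themselves. The log2 fold changes of Egr1 and Egr2 were 0.24 ± 0.15 and 0.27 ± 0.21 (SE), and neither passed (edgeR adjusted p = 0.299 and 0.403).

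Dusp1 encodes a nuclear phosphatase that switches off MAP kinases, a brake induced together with the genes it restrains. Dusp1 (chromosome 17, 26505590 to 26562128, minus strand) stood at 13.2 and 11.1 CPM in the controls, against 17.2, 18.5, 18.6 and 10.2 CPM in Cmtr1 cKO 1 to 4. Cmtr1 cKO 1 to 3 were above both controls and Cmtr1 cKO 4 was below both. The log2 fold change was 0.40 ± 0.22 (SE, edgeR adjusted p = 0.247), and without Cmtr1 cKO 4 it was 0.57 and passed (edgeR adjusted p = 0.00389). Ier2, which encodes a short nuclear protein, lies on chromosome 8 from 84661331 to 84662852 (minus strand). It stood at 66.5 and 62.5 CPM in the controls, against 52.5, 49.6, 58.1 and 58.7 CPM in Cmtr1 cKO. All 4 Cmtr1 cKO libraries were below both controls, but the log2 fold change of -0.24 ± 0.09 (SE) did not pass (edgeR adjusted p = 0.0973).

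The members did not order the Cmtr1 cKO libraries alike. Fos, Fosb, Jun and Dusp1 were lowest in Cmtr1 cKO 4 among the 4 libraries, and Jun and Dusp1 were lower there than in any control. Egr1 and Egr2 were highest in Cmtr1 cKO 4 of all 6 libraries, and Nr4a1 was second highest there. Jund was also highest of all libraries in Cmtr1 cKO 4 (211 CPM), Junb was highest in Cmtr1 cKO 3 (150.3 CPM), and Ier2 was about level in Cmtr1 cKO 3 and 4 (58.1 and 58.7 CPM). The controls differed as well, since Egr1, Egr2 and Nr4a1 were 1.33-fold, 1.58-fold and 1.22-fold as high in control 2 as in control 1. Fos and Dusp1 in control 2 were at 0.824 and 0.839 of their level in control 1. Fosb, on few reads, did not follow Fos there, at 1.26. Summed markers of regulatory T cells were higher in control 2 and those of myeloid cells higher in control 1. The part of these cells in the differences between the controls was not tested. The sets of 4 and 3 members plotted by the share of reads outside exons were chosen after the values were seen. Junb, Jund and Ier2 are in neither. The share of reads outside exons is lowest in control 2 and, among Cmtr1 cKO, in library 4. The genotypes were also compared with this share as a covariate. The share differs between the groups and can include reads in exons on the other strand. Whether it depends on genotype, or on such reads in Cmtr1 cKO 3, was not tested. Adjusting for it can make a difference appear as well as end one.

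**Figure D2:**
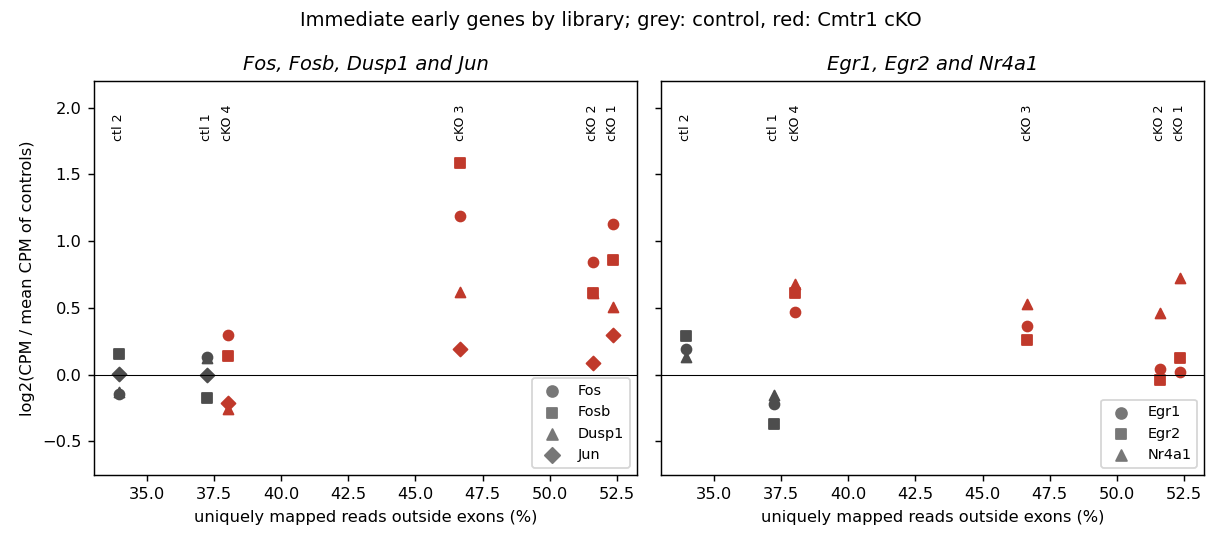
Log2 ratio of each library's CPM to the control mean (y axis) for 2 sets of members, 1 point per gene and library. The x axis is the percent of uniquely mapped reads outside exons, which can include exon reads on the other strand. In the left panel Cmtr1 cKO 4 (38.0% of reads outside exons) lies at -0.26 for Dusp1 and -0.21 for Jun, below both controls. Fosb lies between the controls there, at 0.14, and Fos above both, at 0.29. In the right panel Cmtr1 cKO 4 lies at 0.47 to 0.68, above both controls.

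With this covariate in the edgeR fit 3 of the 10 members were higher, Nr4a1, Egr1 and Egr2, and 0 lower, where 2.51% of all genes were called higher and 2.71% lower. Nr4a1 had a log2 fold change of 0.69 with an SE of 0.14 (edgeR adjusted p = 0.00342), so its difference was as large with the covariate as without it. Egr1 moved to 0.63 ± 0.13 and Egr2 to 0.78 ± 0.17 (SE, edgeR adjusted p = 0.00342 and 0.0127). Fos moved to 0.32 ± 0.23 (SE) and its call ended (edgeR adjusted p = 0.518), while Dusp1 had -0.26, Jun -0.23 and Jund 0.17, all of them changes of sign that did not pass. Genotype and share overlap in these 6 libraries, and Cmtr1 cKO 4 is the 1 Cmtr1 cKO library within 1 percentage point of a control. In the controls with Cmtr1 cKO 1 and 2 alone, the libraries farthest apart in this share, edgeR called Fos (0.99), Nr4a1 (0.60) and Dusp1 (0.56) higher and Junb (-0.44), Jund (-0.20) and Ier2 (-0.33) lower. There 18.7% of all genes were called higher and 18.7% lower. Without Cmtr1 cKO 4, 4 members were higher (Fos, Fosb, Nr4a1 and Dusp1) and 1 lower (Ier2), where 15.4% of all genes were called higher and 15.4% lower. Nr4a1 was at 0.58 there. In the controls with Cmtr1 cKO 1 and 2 alone Egr1 and Egr2 were at 0.04 and 0.06.

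**Figure D3:**
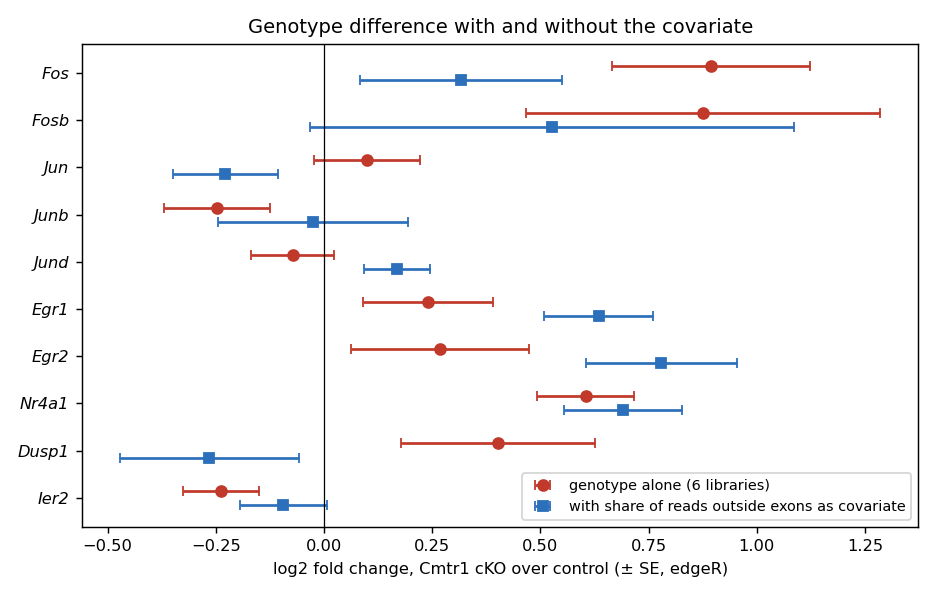
Log2 fold change of Cmtr1 cKO over control with its SE (x axis) for the 10 members (y axis), by genotype alone (red circles) and with that share outside exons added as covariate (blue squares). Nr4a1 is at 0.60 and 0.69, Fos goes from 0.89 to 0.32, and Egr1 and Egr2 go from 0.24 and 0.27 to 0.63 and 0.78.

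Per kilobase of exon the members kept nearly the same order of level in both groups. Jund was highest at 118 and 112 CPM per kilobase in control and Cmtr1 cKO, followed by Junb at 64.2 and 54.1, Ier2 at 42.4 and 36.0 and Jun at 13.8 and 14.8. In the controls Egr1 (8.41) and Nr4a1 (8.26) did not differ beyond their spread, with ranges of 7.23 to 9.59 and 7.45 to 9.08. Egr2 at 6.21, with a range of 4.81 to 7.60, overlapped both Nr4a1 and Fos, which was at 4.98. In Cmtr1 cKO Nr4a1 was at 12.5 (11.4 to 13.6), Egr1 at 9.92 (8.55 to 11.7), Fos at 9.32 (6.11 to 11.3) and Egr2 at 7.44. Nr4a1 thus stood above Egr1, and Fos above Egr2, with ranges that overlapped in both pairs. Dusp1 at 3.67 and 4.87 and Fosb at 0.237 and 0.442 were lowest in both groups.

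The members differ in exon number. Jun, Junb, Jund and Ier2 have 1 exon in their principal GENCODE vM21 transcript, as do 2.44% of the 10521 protein-coding genes tested. Egr1 and Egr2 have 2, Fos, Fosb and Dusp1 4, and Nr4a1 8, against a median of 9. The log2 fold changes of the 4 single-exon members ran from -0.25 to 0.10, and those of the 6 others from 0.24 to 0.89. All 257 single-exon protein-coding genes had a median of -0.13, with 10 higher and 28 lower by edgeR. The 10264 others had a median of -0.021, with 458 higher and 725 lower. With the covariate these medians were -0.0011 and -0.0073. The single-exon members then ran from -0.23 (Jun) to 0.17 (Jund) and the other members from -0.26 (Dusp1) to 0.78 (Egr2), so these ranges overlapped. The GC content of the members' transcripts ran from 51.4% (Egr2) to 67.1% (Jund), all above the protein-coding median of 50.2%, and 2 members were higher and 0 lower after correction for GC (4.75% and 6.67% of all genes).

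Many immediate early mRNAs are short-lived, and the pentamer ATTTA in the 3' untranslated region is part of the AU-rich elements that mark such mRNAs for decay. Fos, Jun and Dusp1 had 4 copies each, Egr2 and Nr4a1 3, Egr1 and Junb 2, Fosb and Jund 1 and Ier2 0. Of protein-coding genes tested, 66.8% had at least 1 copy and 35.2% at least 3. The members with 3 or 4 copies include both genes called and 3 that were not.

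Of 50 other immediate early genes 49 were in the files and 44 were tested, and 2 were higher and 2 lower by edgeR, close to the 11.4% of all genes called in either direction. At an unadjusted p under 0.05 these counts were 5 and 9, where 1930 and 2003 of all 12748 genes had such a p, and the median log2 fold change was -0.008. Dusp6, a cytoplasmic ERK phosphatase, rose from 36.8 ± 6.3 to 52.0 ± 5.0 CPM (SD), a log2 fold change of 0.50 with an SE of 0.12 (edgeR adjusted p = 0.0223). Plk2, a kinase gene that p53 also induces, rose by 1.39 at a low level, from 0.738 to 1.97 CPM, on 8 reads in each control. Its call ended with DESeq2 (adjusted p = 0.101) and with unstranded counts (edgeR adjusted p = 0.053). Btg1, an antiproliferative gene of quiescent cells, fell by 0.48 on the log2 scale, and Klf6, a zinc finger factor, fell by 0.43. With the covariate Klf6 was the only one of these 4 still called (-0.40 in the same edgeR test, against 0.57 for Dusp6).

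The close relatives of the members and the further immediate early genes given in this paragraph did not pass where tested. Nr4a3, the sister receptor of Nr4a1, had 14.7 and 18.4 CPM in the controls, against 19.1, 18.2, 17.8 and 22.2 CPM in Cmtr1 cKO (log2 fold change 0.23 ± 0.14, SE). Egr3 had 5.86 and 8.84 CPM against 8.52, 8.62, 8.57 and 7.66 CPM. Cd69, an early surface marker of activation, had a log2 fold change of 0.12, with 127 and 111 CPM in the controls and 124 to 136 in Cmtr1 cKO. Myc had -0.17, Zfp36, which encodes a protein that binds AU-rich elements, -0.18, and Nfkbia, the NF-kappa-B inhibitor, -0.24 (edgeR adjusted p = 0.279, 0.136 and 0.0638). Btg2 had -0.037 and Klf2, a quiescence factor, -0.029. Atf3, a stress-induced AP-1 family gene, had at most 3 reads in any library and was not tested.

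Of 29 genes read as a record of steady T cell receptor signal 28 were tested, and 3 were higher and 1 lower by edgeR, a share near the 11.4% of all genes called in either direction. At an unadjusted p under 0.05 these counts were 3 and 3, where 1930 and 2003 of all 12748 genes had such a p. The median log2 fold change was 0.037. Cd6, a receptor related to Cd5, was at 363 and 369 CPM in the controls, against 445, 459, 431 and 498 CPM in Cmtr1 cKO. It rose by a log2 fold change of 0.32 with an SE of 0.08 (edgeR adjusted p = 0.0271). Cd5, a negative regulator whose level scales with self-recognition, had 430 and 462 CPM against 475, 479, 484 and 512 CPM. Its 4 Cmtr1 cKO libraries were above both controls, but the fold change of 0.13 ± 0.07 (SE) did not pass (edgeR adjusted p = 0.259).

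Tox, a chromatin factor of T cell development and chronic stimulation, rose from 69.7 ± 1.5 to 120 ± 8.8 CPM (SD), at a log2 fold change of 0.79 called under all 16 alternatives. Sh2d2a, a T cell adaptor gene, rose by a log2 fold change of 0.28 with an SE of 0.08 (edgeR adjusted p = 0.0417). Ly6c1, a surface protein gene that falls with stronger self-recognition in naive CD4 T cells, had 62.2 and 52.9 CPM in the controls, against 30.3, 25.7, 35.1 and 30.02 CPM in Cmtr1 cKO. It fell by 0.93 ± 0.11 on the log2 scale (SE, edgeR adjusted p = 0.000805) and was called under all 16 alternatives. Ly6c1 has a near-identical neighbour, Ly6c2, so its uniquely mapped count is uncertain. Ly6c2, named after its values were seen, had 1.85 to 3.67 CPM in all libraries and did not pass (-0.20). Cd6, Tox and Ly6c1 kept their calls with the covariate, at 0.44, 0.63 and -0.89, Sh2d2a did not (0.22), and Cd5 passed there (0.22, edgeR adjusted p = 0.0402).

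Heat shock and chaperone genes often rise with cell handling. Of 26 such genes 24 were tested, 1 was higher and 3 lower by edgeR, where 4.66% and 6.77% of all genes were, and the median log2 fold change was -0.096. At an unadjusted p under 0.05 these counts were 2 and 9, where 1930 and 2003 of all 12748 genes had such a p. A log2 fold change above 0 was seen in 7 of the 24 and in 6368 of all 12748 genes. Hsp90ab1, the constitutive HSP90, was at 943 and 993 CPM in the controls, against 595, 595, 636 and 731 CPM in Cmtr1 cKO. It fell by 0.60 ± 0.10 on the log2 scale (SE, edgeR adjusted p = 0.00353). Hspa8, the constitutive HSC70, fell by 0.38, and Hspe1, the mitochondrial HSP10, by 0.46. Hsf1, the heat shock factor itself, rose by 0.30. The inducible HSP70 genes did not pass. Hspa1a had 17.6 and 12.7 CPM against 16.5, 26.8, 19.7 and 17.2 CPM (log2 fold change 0.40 ± 0.20, SE, edgeR adjusted p = 0.21). Its near-identical copy Hspa1b had 0.088, and both counts are uncertain because reads shared by the copies enter neither. Dnajb1, an HSP40 gene induced with them, had -0.16. With the covariate Hsp90ab1 stayed lower at -0.36 and the calls of Hspa8 and Hspe1 ended (-0.16 and -0.30). Hsf1 lost its call with the covariate as well (0.23, edgeR adjusted p = 0.255), with DESeq2 (adjusted p = 0.0776) and with unstranded counts (edgeR adjusted p = 0.067).

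**Figure D4:**
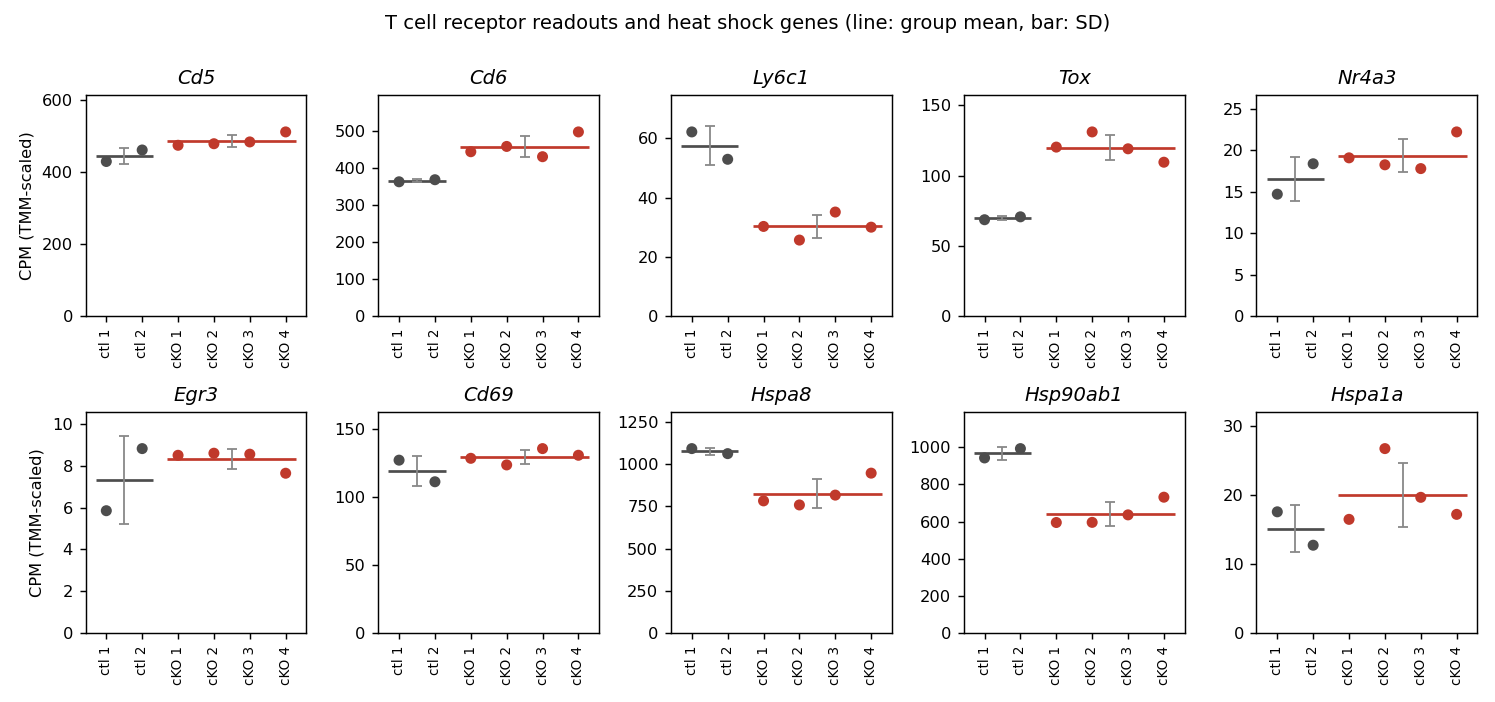
CPM of T cell receptor readouts and heat shock genes (y axis, from 0, a scale of its own for each gene) in control (grey) and Cmtr1 cKO (red) libraries, with group means as lines and SD as bars. Ly6c1 and Hsp90ab1 are lower and Tox and Cd6 higher in all 4 Cmtr1 cKO libraries, while Hspa1a, Egr3 and Cd69 overlap between groups.

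Of 32 genes of the upstream pathway, with ERK signalling, SRF with its partners, CREB, NFAT and MEF2, 30 were in the files and tested, and 0 were higher and 1 lower by edgeR and by DESeq2, at a median log2 fold change of -0.064. Of all genes 4.66% were called higher and 6.77% lower by edgeR, and 5.41% and 5.91% by DESeq2. At an unadjusted p under 0.05 the counts of these 30 were 0 and 8, where 1930 and 2003 of all 12748 genes had such a p. The 1 called was Nras, a RAS GTPase, which fell by 0.33. Srf stood at 98.1 and 94.6 CPM in the controls, against 79.7, 84.2, 89.6 and 85.3 CPM in Cmtr1 cKO, all below both controls, but -0.19 did not pass (edgeR adjusted p = 0.109). Elk4, an SRF partner, had -0.057. Of 18 other AP-1 family genes and NFAT partners 14 were tested and 0 were called by edgeR or DESeq2, at a median of -0.039, with 0 higher and 3 lower at an unadjusted p under 0.05. Fosl2, another FOS-type gene, had 15.6 and 14.1 CPM against 11.3, 8.80, 11.7 and 10.3 CPM. All 4 Cmtr1 cKO libraries were below both controls, opposite to Fos, but the fold change of -0.50 ± 0.15 (SE) just missed the threshold (edgeR adjusted p = 0.051). Batf had 0.064.

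Leaving out a control ended many calls over all genes, from 594 higher and 863 lower to 69 and 186 without control 1 and to 39 and 154 without control 2. Among the named genes Klf6, Btg1, Plk2, Cd6, Sh2d2a, Hspa8, Hspe1, Hsf1 and Nras lost their calls without either control, Dusp6 without control 1 and Hsp90ab1 without control 2. Most of these log2 fold changes stayed close to their values with all libraries. Without control 1 and control 2 Btg1 was at -0.46 and -0.48, Hspe1 at -0.46 and -0.44, Hspa8 at -0.35 and -0.39, Sh2d2a at 0.27 and 0.31, Cd6 at 0.32 and 0.35, Klf6 at -0.45 and -0.38, Nras at -0.28 and -0.35 and Plk2 at 1.32 and 1.48. Hsf1 moved more, to 0.21 and 0.42, and Dusp6 was at 0.34 and Hsp90ab1 at -0.55. Plk2, Sh2d2a, Hspa8 and Hsf1 also lost their calls without Cmtr1 cKO 1, 2 or 3, Cd6 without Cmtr1 cKO 2 or 3 (0.33 and 0.37) and Nras without Cmtr1 cKO 3 (-0.31).

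The members differed in how far libraries of 1 group spread. The pooled within-group SD of log2 CPM was 0.50 for Fosb, 0.37 for Dusp1, 0.36 for Fos and 0.33 for Egr2, larger than for 93.3%, 86.5%, 86.0% and 83.5% of all genes tested. Nr4a1 had 0.15 and Ier2 0.11, larger than for 50.4% and 32.6%. The genes whose profile over the 6 libraries lay closest to the mean profile of the 10 members, among 8466 genes with a mean of at least 10 CPM, were Fgfr1op, Ap1g2, Sh2d2a, Zfp949 and Vapb. Their root mean square differences from it were 0.036 to 0.056 on the log2 scale, and Sh2d2a was the 1 of these called. The members themselves departed from this mean. In Cmtr1 cKO 4 Dusp1 was at -0.49 and Egr2 at 0.46 on the centred log2 scale, against -0.015 for the mean. How close these genes lie to any single member was not tested.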

How the data were processed

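Total RNA of sorted naive CD4 T cells was extracted with Trizol, depleted of ribosomal RNA and made into Illumina TruSeq libraries, per the labels' protocols. The authors deposited read counts per gene, not normalized, with 1 unstranded and 2 stranded columns. The submitters' processing notes list the aligner STAR (2.5.2b), edgeR and the builds mm10 and GRCm38. The sources used here do not name the counting annotation. Column 4, the gene's own strand, was used (18.7 to 22.7 times the reads of the other strand, and 5.57 times in Cmtr1 cKO 3). The 4 rows that name no gene held 52.1% to 62.0% of reads and were left out. Identifiers without versions were matched to GENCODE vM21, where 46488 of 46983 (98.9%) had a symbol.

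Genes were kept with filterByExpr, scaled with TMM factors and tested for genotype with edgeR 4.0.16 (glmQLFit robust, glmQLFTest, R 4.3.3). The SE is the fold change divided by the square root of F. On simulated counts 81.9% of the 193 genes given a log2 change of 1 were called, and so were 7 of the 12369 left as they were. These counts were drawn independently, without the library differences described above. A log2 change of 1 is also larger than that of any member, so these rates need not hold for the real data. Chi-square per degree of freedom between replicates was 1.93 to 54.0, above sampling noise. Alternatives included DESeq2 1.42.0. Counts carry no molecular identifiers, so reads need not be separate molecules.

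The members and lists were chosen with earlier results of these data known. Named were all members, up to 4 called genes per list and direction, and a fixed set of relatives.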

Additional observations from a re-analysis of the deposited data

Results flagged for a closer look

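In 3 genes 1 of the 4 Cmtr1 cKO libraries stood far from the others, measured as its gap to the nearest library over the whole range of the group. Dusp1 in Cmtr1 cKO 4, at 10.2 CPM against 17.2 to 18.6, had a gap of 0.834 of the range. Egr3 in Cmtr1 cKO 4, at 7.66 CPM against 8.52 to 8.62, had 0.896. Hspa1b in Cmtr1 cKO 2, at 54.6 CPM against 37.3 to 38.9, had 0.907. Chance flags about 1 in 20 such groups, and 3 of the 40 genes examined were flagged.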

How the results depend on the processing

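Of 160 values of the 10 members under 16 alternatives, 131 kept their direction and their side of the threshold, 7 lost a call, 18 gained one and 4 changed sign. Of 480 values of other named genes these numbers were 387, 48, 27 and 18. The cause was not tested. Genes higher (594) and lower (863) became 320 and 346 with the share outside exons as covariate, and 1167 genes were higher without a filter. In the controls with Cmtr1 cKO 1 and 2 alone they were 2342 and 2339. Leaving out 1 library gave 39 to 1940 higher and 154 to 1940 lower, the lowest without control 2 and the highest without Cmtr1 cKO 4. Members higher ran from 0 (without control 1) to 4 (without Cmtr1 cKO 4) and members lower from 0 to 1. Members lower were 3 in the 4 libraries alone and 1 without a filter.

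Called genes in the 4 libraries alone were 17 of 43 other immediate early genes tested, 7 of 28 receptor readouts and 11 of 24 heat shock genes. For upstream genes and AP-1 partners they were 12 of 30 and 6 of 14. Of all 12535 genes tested there 4681 were called. Without a filter 10 of 49 other immediate early, 2 of 30 upstream and 1 of 18 AP-1 partner genes were called, and 2272 of all 24952. With protein-coding genes alone 7 of 44 other immediate early genes and 1 of 14 AP-1 partners were called, and 1474 of all 10521. With the covariate 2 of 24 heat shock and 0 of 30 upstream genes were called, and 666 of all 12748. Leaving out 1 library gave ranges of 0 to 15, 2 to 7, 0 to 12, 0 to 9 and 0 to 5 for the 5 lists in the order above. The upper ends of these ranges were reached without Cmtr1 cKO 4, where 3880 of all 12603 genes were called. The difference in the share outside exons ran from 9.83 to 14.6 percentage points.

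Control and Cmtr1 cKO libraries 1 and 2 share replicate numbers, but no label ties them to an animal or batch, and same-numbered libraries deviated with r = 0.125 and -0.131. With a replicate block in these 4 libraries 2431 genes were higher and 2399 lower (2345 and 2322 with GC correction as well), close to the same libraries without the block. Members lower were 3 with the block and 3 with block and GC correction. The 5 lists, with 43, 28, 24, 30 and 14 genes tested, had 20, 9, 13, 11 and 6 called genes with the block. With GC correction as well they had 20, 8, 12, 12 and 4. Of all 12535 genes 4830 and 4667 were called in these 2 fits.

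Changes of sign with the covariate were Jun (-0.23), Dusp1 (-0.26), Jund (0.17), Myc (0.11), Btg2 (0.14), Klf2 (0.33), Elk4 (0.13) and Hspa1b (-0.18). Leaving out 1 library gave ranges of -0.020 (without control 1) to 0.64 for Egr2, -0.075 (without control 1) to 0.52 for Egr3 and -0.57 to 0.35 (without control 1) for Ly6c2. Btg2 ran from -0.080 to 0.029 (without control 2) and Hspa1b from -0.061 (without Cmtr1 cKO 2) to 0.22, with -0.0057 without control 2. Klf2 was at 0.017, 0.043 and 0.13 without Cmtr1 cKO 1, Cmtr1 cKO 2 and control 2, and at 0.00079 with protein-coding genes alone. Batf was at -0.15 in the 4 libraries alone, -0.15 with the replicate block, -0.14 with block and GC correction and -0.029 without Cmtr1 cKO 4. Low counts limit Fosb (15 to 42 reads) and Plk2.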
